A study of Mus musculus with 2 samples.

Results

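DNA replication and mitosis genes are described here in ATDC5, a mouse chondrocyte line that makes cartilage matrix under a supplement of insulin, transferrin and selenium (ITS). They are 45 genes, 18 acting around S phase and 27 in G2 and mitosis, chosen by name from textbook roles and read from every RefSeq-named probe on the array. The choice was made with earlier results of these data known. All 45 had a probe, out of 20657 genes with one, and they were read by 59 probes and 66 spots. Of the 45, 41 were well above background on both arrays, 1 (Ttk) on the GFP array only, and 3 (Ccne2, Aurkb and Cenpf) on neither. Of the 20657 genes with a probe, 13860 were measured on both arrays.

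Both groups were stable ATDC5 lines with a transgene switched on by doxycycline, namely GFP (the control) or A-CEBP, and each group was 1 sample on 1 Cy3 array. The A-CEBP protein blocks C/EBP transcription factors by binding them in a form that cannot hold DNA. Each line was plated on 60 mm dishes, given 2 µg/mL doxycycline for 2 days and then ITS for 3 weeks, and both groups therefore share doxycycline, ITS and an inducible construct. With 1 sample per group the spread between cultures is unknown and no p-value was computed. The effect of the transgene and a difference between the separately made lines cannot be told apart. The sources used here do not give whether a line is 1 clone, and no probe was used to check the transgenes.

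Cells copy their DNA in S phase and divide it in mitosis, and the genes for both steps are switched on in order. E2F factors, freed when cyclin D and cyclin E kinases act on the retinoblastoma protein, drive the genes of origin licensing, the replicative helicase and deoxynucleotide supply. Genes of G2 and mitosis come later, through CCAAT boxes bound by NF-Y and through the CHR element, bound by the DREAM complex in resting cells and by B-MYB and FOXM1 in dividing ones. In the growth plate, chondrocytes of the proliferating zone express both sets, and they leave the cycle as they become hypertrophic.

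Promoters of 7 members are printed because they show the elements that the S-phase and the G2/M genes share, and how those of the members that differed most between the arrays compare. The sequences are from RefSeq, mouse build GRCm38.p6, 5′ to 3′ on the gene's strand, and each is the 250 bases before the transcript start. Capitals mark matches on either strand, which may overlap. The E2F motif was searched as TTCCCGC and also, for the other common forms of the site, as TTGGCGC, with further forms spelled as TTCGCGC and, as the last of these, TTGCCGC. The CCAAT box was searched by its name's letters, and the CHR element in its usual form TTTGAA and in its other form, which is spelled TTCGAA. Mcm6, a helicase subunit, lies at chr1:128359706-128359955 on the minus strand and Rrm2, a ribonucleotide reductase subunit, at chr12:24708004-24708253 on the plus strand. Ccnb2, which encodes cyclin B2, is shown from chr9:70421555-70421804 and Cdk1, the mitotic kinase, from chr10:69352913-69353162, both on the minus strand. Ttk, the checkpoint kinase MPS1, is from chr9:83834439-83834688 and the licensing factor Cdt1 from chr8:122567765-122568014, both on the plus strand. Thymidine kinase 1, Tk1, is from chr11:117826015-117826264 on the minus strand.
Mcm6: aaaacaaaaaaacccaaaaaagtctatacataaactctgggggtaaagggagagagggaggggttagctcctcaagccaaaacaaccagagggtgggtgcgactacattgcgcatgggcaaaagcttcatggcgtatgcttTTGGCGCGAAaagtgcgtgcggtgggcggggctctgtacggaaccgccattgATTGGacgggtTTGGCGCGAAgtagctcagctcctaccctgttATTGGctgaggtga
Rrm2: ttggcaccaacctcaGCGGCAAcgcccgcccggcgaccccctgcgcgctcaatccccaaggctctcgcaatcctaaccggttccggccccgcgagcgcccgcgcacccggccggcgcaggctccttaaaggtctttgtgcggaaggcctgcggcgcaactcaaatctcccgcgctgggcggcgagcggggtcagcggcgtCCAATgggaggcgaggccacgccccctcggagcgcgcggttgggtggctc
Ccnb2: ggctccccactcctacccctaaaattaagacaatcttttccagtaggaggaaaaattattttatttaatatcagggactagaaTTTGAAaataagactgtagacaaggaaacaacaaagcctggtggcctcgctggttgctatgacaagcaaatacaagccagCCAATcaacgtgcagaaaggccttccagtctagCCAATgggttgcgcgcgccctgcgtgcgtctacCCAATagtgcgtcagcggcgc
Cdk1: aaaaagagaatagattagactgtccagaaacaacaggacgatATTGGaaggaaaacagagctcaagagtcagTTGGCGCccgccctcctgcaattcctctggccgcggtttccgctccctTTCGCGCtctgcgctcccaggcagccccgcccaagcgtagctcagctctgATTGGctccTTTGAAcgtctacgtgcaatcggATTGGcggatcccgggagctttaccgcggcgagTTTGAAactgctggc
Ttk: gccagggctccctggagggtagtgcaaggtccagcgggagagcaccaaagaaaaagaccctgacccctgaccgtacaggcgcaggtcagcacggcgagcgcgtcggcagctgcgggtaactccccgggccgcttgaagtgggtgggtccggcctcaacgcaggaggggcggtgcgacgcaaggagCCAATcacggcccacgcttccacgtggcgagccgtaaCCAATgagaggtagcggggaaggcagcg
Cdt1: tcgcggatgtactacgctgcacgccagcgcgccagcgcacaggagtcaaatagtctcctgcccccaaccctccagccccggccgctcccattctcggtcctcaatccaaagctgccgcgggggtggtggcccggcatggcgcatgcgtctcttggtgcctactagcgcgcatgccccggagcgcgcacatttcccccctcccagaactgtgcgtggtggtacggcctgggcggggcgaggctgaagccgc
Tk1: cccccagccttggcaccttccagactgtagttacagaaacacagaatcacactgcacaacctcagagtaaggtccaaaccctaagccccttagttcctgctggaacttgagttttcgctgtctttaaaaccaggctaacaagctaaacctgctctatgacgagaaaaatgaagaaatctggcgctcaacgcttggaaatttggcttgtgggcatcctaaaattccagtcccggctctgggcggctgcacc

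Mcm6 held 4 E2F matches and 2 CCAAT boxes, the E2F matches in overlapping pairs, and Rrm2 held 1 of each. Ccnb2 held 3 CCAAT boxes and 1 CHR match, and Cdk1 held 3 CCAAT boxes, 2 CHR and 2 E2F matches. The Ttk window held 2 CCAAT boxes, and those of Cdt1 and Tk1 held none of these letters, which says nothing of what binds there. The same was true of Ccne1, E2f1 and Tyms in S phase and of Birc5 and Nusap1 in G2/M. These differed between the arrays by -0.36 (Birc5) to 0.19 (Nusap1), so a window without matches was not particular to the lower members. The table had a window for 36 of the 45 members. Among 15 S-phase members with a window, 7 (46.7%) held an E2F match, against 13.4% of 11044 genes that had a window and were measured on both arrays. Of 21 G2/M members with a window, 19 (90.5%) held a CCAAT box, against 36.4%, and 8 (38.1%) held a CHR match, against 12.2%. The 21 include Ttk and Cenpf, which were not measured on both arrays. Over all 27025 genes with a window the shares were 34.5% for CCAAT, 17.4% for CHR and 7.97% for E2F. A CCAAT box was also in 9 of 15 S-phase members (60%). CHR matches were in 2 of those 15 (13.3%), and E2F matches in 3 of the 21 G2/M members (14.3%). A C/EBP-type match (TTGCNNAA, either strand) was present in 2 of 15 S-phase members, Mcm3 and Pcna, and in 0 of 21 G2/M members, against 7.54% of the measured genes. Such matches describe the letters in these windows and were not tested as sites.

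In these cultures the replication and mitosis genes differed little between A-CEBP and GFP. No member of the 41 seen on both arrays was at least 2-fold lower or higher with A-CEBP, where 1.70% of all genes tested were lower (236) and 1.26% higher (174) by that size. With scaling on spike-in spots those all-gene counts were 180 lower and 323 higher. Only Cdt1 and Tk1 were at least 1.3-fold lower (7.14% of all genes) and none was at least 1.3-fold higher (10.5%). Ttk, seen on the GFP array only, read 2.91-fold lower, from 1 dim spot per array with a scanner error of 0.41 in log2. Values are log2 of the scanner's processed signal with each array's 75th percentile set to 0, and a difference is A-CEBP minus GFP. Only measured differences of the same probe are compared, since a signal on an array does not rank 1 gene's level against another's.

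The median difference was -0.08 for 17 S-phase members and -0.06 for 24 G2/M members, against 0.05 for all 13860 genes measured on both arrays. Of the 41 members, 31 lay below the median of all genes, 12 of 17 in S phase and 19 of 24 in G2/M, where 50% of all genes do so by construction. Below 0 were 26 of the 41, against 40.9% of all genes. The quartiles were -0.15 and 0.04, a narrower range than the -0.10 and 0.19 of all genes. S-phase and G2/M medians differed by -0.02. With scaling on the spike-in spots the median of all genes moved to 0.24 and the medians of the S-phase and G2/M members turned to 0.12 and 0.14, so the sign of a small difference depends on the scaling. Relative to the median of all genes the S-phase median was -0.12 and the G2/M median -0.10. Of the 10 alternatives, 5 shift all genes by 1 constant and leave these distances as they are by construction. Over the other 5 (quantile, cyclic loess, normexp, no filter on dim probes, mean over probes) they ran from -0.12 to -0.06 and from -0.10 to -0.05.

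Measurement error was of the size of most of these differences. The scanner software's own error of a log2 difference had a median of 0.20 over the measured members, the SD over replicate spots of a probe was 0.12, and that between different probes of a member was 0.17 over 8 members. In the main values, 34 (82.9%) of the 41 members differed by less than their scanner error. The other 7, Cdt1, Tk1, Birc5, Bub1b, Cenpe, Cdk1 and Mcm7, were all lower in the A-CEBP sample, which is 17.1% of the members against 14.0% of all genes. None was higher by more than its error, against 22.8% of all genes. These counts depend on the scaling. With spike-in scaling several members were higher by more than their error, among them Nusap1 (0.39), Ccne1 (0.37) and Pbk (0.34). There Cdt1 (-0.31) and Tk1 (-0.27) stayed lower by more than theirs, and Birc5, Bub1b, Cenpe, Cdk1 and Mcm7 were within theirs. These errors cover the measurement and not differences between cultures.

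**Figure D1:**
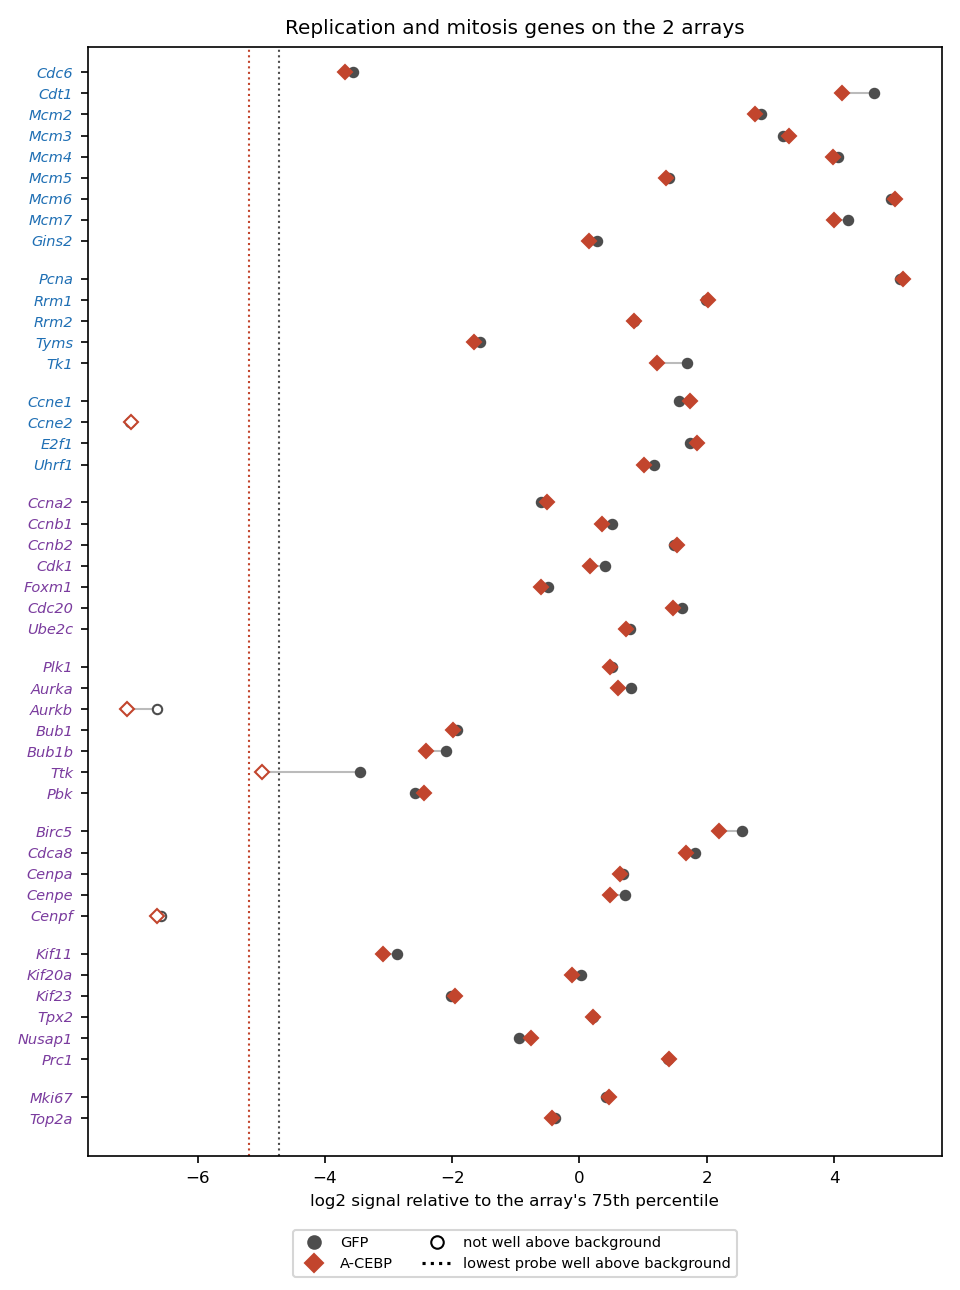
Each row is a member, with its log2 signal relative to the array's 75th percentile on the GFP array (grey circle) and the A-CEBP array (red diamond), hollow where the probe was not well above background. S-phase members are named in blue and G2/M members in purple, dotted lines mark the lowest probe well above background on each array (-4.73 for GFP and -5.19 for A-CEBP), and only Ttk shows a wide gap between its points among probes seen on at least 1 array.

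Origin licensing loads the MCM helicase onto DNA before S phase. CDC6 and CDT1 are the loaders, the MCM2 to MCM7 proteins form the helicase ring and GINS2 is part of the complex that activates it. Cdt1 read 21641 intensity units with GFP and 15786 with A-CEBP, a log2 difference of -0.51 (1.42-fold lower, scanner error 0.20). This was the largest difference among members seen on both arrays, and it kept its direction in the main values and all 10 alternatives, from -0.57 to -0.31. Its partner Cdc6 was dim, at 74.1 and 70.7 units, and differed by -0.12, within its error of 0.28. A 2nd Cdc6 probe passed the background limit with A-CEBP only, at 40.3 units against 26.0.

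The 6 MCM genes stayed close together. Mcm7 was the lowest of them in the A-CEBP sample, with 16263 and 14479 units and a difference of -0.22. Mcm2 read 6309 and 6114 units, a difference of -0.10. Mcm4 read 14627 and 14410 units and differed by -0.08, and Mcm5, at 2321 and 2320 units, differed by -0.05. Mcm3 and Mcm6 were on the other side of 0. For Mcm3 the signals were 8014 and 8877 units, a difference of 0.09. Mcm6 read 25898 and 28145 units and differed by 0.07. Gins2, with 1057 and 999 units, differed by -0.13. In the main values all but Mcm7 were within their scanner error, and differences between MCM genes were not tested.

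Deoxynucleotide supply and the sliding clamp gave 1 exception. Tk1, the thymidine salvage enzyme, read 2800 units with GFP and 2108 with A-CEBP and was 1.38-fold lower, a difference of -0.46. With spike-in scaling the difference was -0.27, under the 1.3-fold size, as was that of Cdt1 at -0.31. Thymidylate synthase, Tyms, makes the same nucleotide by the other route, and read 294 and 287 units, a difference of -0.09. Rrm1 and Rrm2, the subunits of ribonucleotide reductase, differed by 0.03 and 0.00. Their signals were 3463 and 3660 units for Rrm1, and 1580 and 1644 units for Rrm2. Pcna, the clamp that holds DNA polymerase on its template, read 28597 and 30802 units and differed by 0.05. Tk1 therefore stood apart from the other 4 genes of this group, which were all within 0.09 of 0.

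Regulators of the G1 to S transition were near 0. Ccne1, encoding cyclin E1, read 2584 and 3030 units, a difference of 0.18, while its dimmer 2nd probe differed by -0.02. E2f1, an activating E2F, read 2916 and 3250 units and differed by 0.10. Uhrf1, which carries DNA methylation through replication, read 1960 and 1829 units, a difference of -0.15, and a 2nd, dim Uhrf1 probe passed the background limit with A-CEBP only. For Ccne2, the signal of 6.53 and 6.81 units was not well above background on either array, so the data hold no value for cyclin E2.

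**Figure D2:**
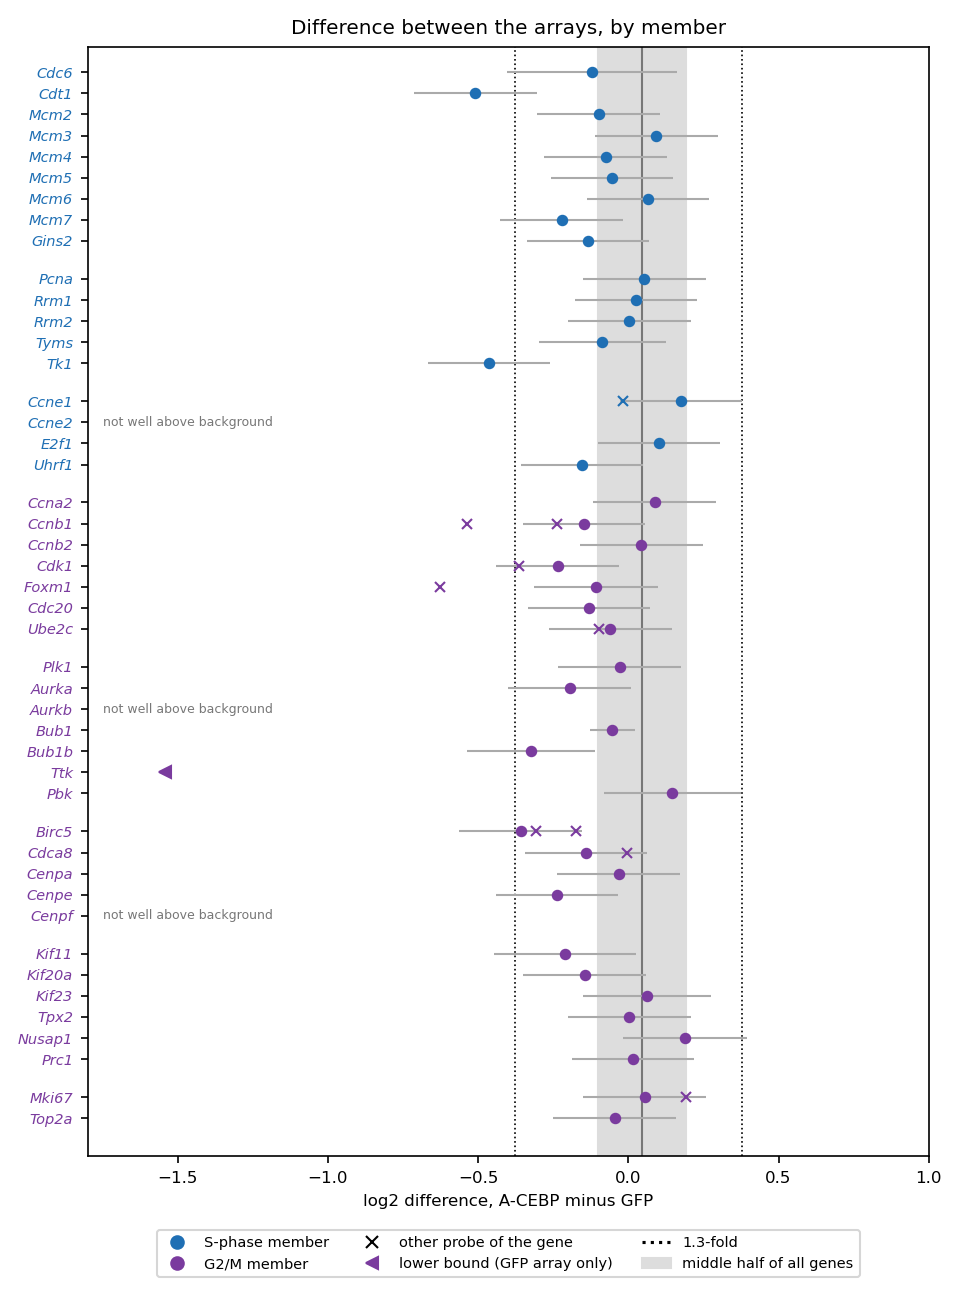
The log2 difference (A-CEBP minus GFP) of each member, as its brightest measured probe with the scanner's error as bars, crosses for the gene's other measured probes and a triangle for Ttk, placed at the difference of its scaled readings, of which that with A-CEBP was not well above background (scanner error 0.41, not drawn). The grey band spans the quartiles of all 13860 genes (-0.10 to 0.19) around their median of 0.05, the dotted lines mark 1.3-fold, and most points lie in or just left of the band.

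Mitotic cyclins and their kinase were flat or slightly lower. Cdk1, the kinase that drives mitosis, read 1156 and 1019 units and differed by -0.24, and its 2nd measured probe, at 79.2 and 63.9 units, by -0.37. Both measured Cdk1 probes pointed the same way, and a 3rd, at 13.4 and 23.1 units, was not well above background on either array. Ccnb1, which encodes cyclin B1, read 1240 and 1162 units and differed by -0.15, with its dimmer probes at -0.24 and -0.54. Ccnb2 read 2437 and 2608 units, a difference of 0.04. Ccna2, encoding cyclin A2, read 577 and 636 units and differed by 0.09. In the main values the brightest probes of the B cyclins lay on opposite sides of 0, both within scanner error.

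FOXM1 is the transcription factor that activates many G2/M genes, and CDC20 and UBE2C work with the anaphase-promoting complex, which ends mitosis by destroying the cyclins. Foxm1 read 620 and 597 units, a difference of -0.11, and its other probe, at 67.8 and 45.5 units, differed by -0.63. Averaging the probes gave -0.37 for Foxm1 and -0.31 for Ccnb1, so the values of these 2 genes rest on the probe taken. Cdc20 read 2658 and 2519 units and differed by -0.13. Both Ube2c probes were close, at -0.06 (1507 and 1500 units) and -0.10.

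Among the mitotic kinases, Ttk was the exception. TTK, also called MPS1, recruits the spindle checkpoint proteins to kinetochores that are not attached. Its only probe read 79.7 units in the GFP sample and 28.4 units in the A-CEBP sample, where it was not well above background. The ratio of the scaled readings, 2.91-fold lower, was taken as its bound. That ratio carries a scanner error of 0.41 on the log2 scale and rests on 1 dim spot per array, so it is not a firm minimum. Of all genes with a probe, 0.828% were seen on the GFP array only, and 0.470% were so with a bound of at least 2-fold. No member was seen on the A-CEBP array only, against 3.26% of all genes, or 0.305% with a bound of at least 2-fold.

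The checkpoint genes that act beside TTK did not differ by that size. Bub1b, which encodes the checkpoint protein BUBR1, read 205 and 170 units and differed by -0.32. Bub1, a kinase of the same checkpoint, was printed on 8 usable spots and read 229 units in both samples, with a mean difference of -0.05 (SD 0.09 over 8 spots, range -0.16 to 0.09). Bub1 is the best measured member, and its spots lay on both sides of 0. Plk1, the polo-like kinase, read 1239 and 1261 units, a difference of -0.03. Aurka, the spindle pole kinase Aurora A, read 1525 and 1383 units and differed by -0.19, or by -0.33 with the normexp background. Pbk, a mitotic kinase, read 145 and 167 units and differed by 0.15, or by 0.01 with that background. For Aurkb, the Aurora kinase of the passenger complex, 8.74 and 6.51 units were not well above background on either array.

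The 4 measured genes of the passenger complex and centromere were below 0 in the main values. With spike-in scaling Cdca8 and Cenpa were above 0, at 0.06 and 0.16, and Birc5 and Cenpe below it, at -0.16 and -0.04. Birc5, which encodes survivin, read 5142 and 4164 units and was 1.28-fold lower, a difference of -0.36. Its other probes differed by -0.31 and -0.17, so all 3 pointed the same way. Cdca8, encoding borealin of the same complex, read 3081 and 2902 units and differed by -0.14, and its other probe by -0.01. Cenpe, the kinetochore motor, read 1432 and 1261 units, a difference of -0.24. Cenpa, the histone variant that marks centromeres, read 1394 and 1415 units and differed by -0.03. The 4 measured genes had a median of -0.19, the lowest of the role groups, and with 4 genes 1 probe can move it. Cenpf, at 9.09 units on both arrays, was not well above background.

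Spindle motors and midzone proteins were spread around 0, with a median of 0.01 over 6 genes. Kif11, the motor that pushes spindle poles apart, read 119 and 107 units and differed by -0.21, within its error of 0.24. Kif20a, which acts in cytokinesis, read 887 and 833 units, a difference of -0.14. Kif23, another motor of the midzone, read 216 and 233 units and differed by 0.06. Prc1, which bundles midzone microtubules, read 2294 and 2407 units, a difference of 0.02. For Tpx2, an activator of Aurora A, 1010 and 1052 units gave 0.00, and a dim 2nd probe was seen in the A-CEBP sample only. Nusap1, a microtubule-binding protein, had the largest value above 0 of all members, 0.19, with 450 and 533 units. In the main values this was within its error of 0.21, and with spike-in scaling it was 0.39.

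The commonest markers of dividing cells gave no difference beyond error in the main values. Mki67, encoding Ki-67, read 1161 and 1252 units and differed by 0.05, and its 2nd probe by 0.19. Top2a, the topoisomerase that untangles chromosomes, read 670 and 674 units, a difference of -0.05. With spike-in scaling Mki67 was at 0.25, above its error of 0.20, and Top2a at 0.15, within its error of 0.21. In bulk RNA, a change in the number of dividing cells and a change in RNA per dividing cell cannot be told apart.

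Other cell cycle genes came from lists taken by function. Of 195 genes listed, 194 had a probe and 186 were measured on both arrays, while Clspn, Fancd2, Chek1, Kif15 and Bora were seen with A-CEBP only, none with a bound of 2-fold, and Brca1, Ncapg and Esco2 on neither array. Those measured had a median of -0.03, and 131 of the 186 lay below the median of all genes. Their differences ran from -2.16 to 1.20 (SD 0.30 over genes), wider than the -0.51 to 0.19 (SD 0.16) of the measured members. The SD was 0.59 in the G1 list and 0.50 in the CDK inhibitors, and 0.12 to 0.23 in the other related lists. The count at least 2-fold apart was 1 lower (0.538%) and 2 higher (1.08%), neither share above the 1.70% and 1.26% of all genes. All 3 belong to the G1 machinery. The median was -0.05 for 43 origin and replisome genes, -0.04 for 15 genes of nucleotide synthesis, -0.06 for 13 of S-phase repair, -0.05 for 28 of the kinetochore, -0.05 for 23 further spindle genes and -0.03 for 15 further mitotic regulators. Condensin, cohesin and separase genes had a median of 0.05 over 18 genes. The list of G1 cyclins, CDKs, E2F, pocket protein and DREAM genes had a median of 0.05 over 24 genes with the widest spread (SD 0.59). The 7 CDK inhibitors had a median of 0.35, with 3 at least 1.3-fold higher (10.5% of all genes) and 1 lower (7.14%).

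Within these lists Chaf1a, the large subunit of the histone chaperone that loads nucleosomes on new DNA, was the lowest of the replisome group. It read 1514 units with GFP and 835 with A-CEBP, 1.88-fold lower, a difference of -0.91. Prim2, a primase subunit, was the highest there at 0.32. Zwint, a kinetochore scaffold, was lowest in its list, with 4540 and 3099 units and a difference of -0.60, and Hjurp, which loads CENP-A, was highest at 0.42, with another probe at 0.12 and a value of 0.23 with the normexp background. Ctps and Dck bounded the nucleotide list at -0.43 and 0.19, and Blm was the lowest of the repair list at -0.26. Espl1, which encodes separase, was at -0.44 and the cohesin gene Stag1 at 0.30, with another probe at 0.12. Ckap2l and Cit bounded the spindle list at -0.48 and 0.59, the latter dim at 92.6 and 144 units and at 0.13 with the normexp background. Fbxo5 and Cdc25b bounded the regulators at -0.27 and 0.07. None of these reached 2-fold.

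Upstream of S phase, the D-type cyclins were higher in the A-CEBP sample. Ccnd1 read 2209 units with GFP and 5034 with A-CEBP, 2.20-fold higher, a difference of 1.13. Ccnd2 read 3881 and 9264 units, 2.30-fold higher, a difference of 1.20. Ccnd3, the third D-type cyclin gene, read 14462 and 20155 units and differed by 0.42, its other probe by 0.27. Cyclins D1 and D2 are induced by growth signals and activate CDK4 and CDK6, and both genes stayed above 2-fold in the main values and all 10 alternatives, from 1.08 and 1.14 upward. Their kinase genes Cdk4 and Cdk6 differed by -0.07 and 0.26. By contrast E2f5, which encodes an E2F that represses with the pocket proteins, was 4.46-fold lower, with 2122 and 494 units and a difference of -2.16. E2f5 ranged from -2.21 to -1.96 over the same settings. Each of Ccnd1, Ccnd2 and E2f5 was read by 1 measured probe.

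None of the remaining E2F, pocket protein and DREAM genes differed by 2-fold. E2f2, E2f3, E2f4, E2f6, E2f7 and E2f8 lay between -0.09 and 0.26, and Rb1, Rbl1 and Rbl2 at -0.27, 0.17 and 0.18. Myc differed by -0.29 and Mybl2, which encodes B-MYB, by -0.02. Rb1, read on 10 spots, and Myc, on 2 spots, were lower by more than their scanner errors of 0.07 and 0.14. E2f6, at 0.23, was higher by more than its error of 0.20. Inhibitors of CDKs were mixed: Cdkn1a and Cdkn1c, which encode p21 and p57, were 1.80-fold and 1.77-fold higher (past 2-fold with spike-in scaling, at 1.05 and 1.02), Cdkn1b and Cdkn2d differed by 0.39 and 0.35, and Cdkn2b, Cdkn2c and Cdkn2a by -0.43, -0.21 and -0.09. Higher Ccnd1 and Ccnd2 and higher Cdkn1a and Cdkn1c thus stood beside measured S-phase and G2/M members that all differed by 0.51 or less in size.

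**Figure D3:**
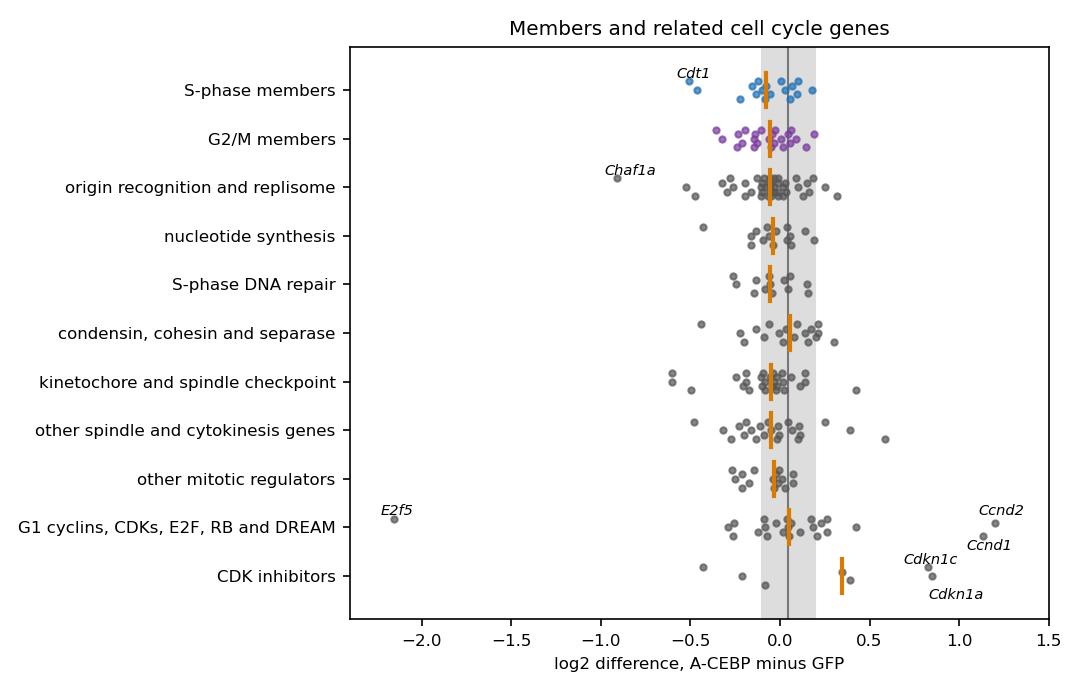
Each point is a gene measured on both arrays, placed by its log2 difference (A-CEBP minus GFP), with the members in colour and the related lists in grey, an orange bar at each list's median and the grey band at the quartiles of all genes. Most points lie between -0.5 and 0.5, and E2f5 at -2.16, Ccnd1 at 1.13 and Ccnd2 at 1.20 lie past 2-fold.

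Facts of the whole arrays bear on these values. On the GFP array 54.6% of the 59305 non-control spots passed as well above background, and on the A-CEBP array 58.0%, with no saturated spot, and both arrays came from 1 slide and 1 scan. The lowest signal that passed was 32.9 units on the GFP array and 24.8 on the A-CEBP array, so fainter probes could pass on the latter. Of the 8 chondrocyte markers 7 were well above background on both arrays, while Matn3 was seen on neither. With A-CEBP 6 of the 7 were 1.3-fold or more higher (median difference 0.63), against 10.5% of all genes. The summed unscaled signal of the markers was 306735 and 437673 units, mostly from Col2a1 (260748 and 364462 units). Of 7 leukocyte markers with a probe, Csf1r, Lyz2, Itgam and Cd14 were seen, and Ptprc, Adgre1 and Cd52 were not above background on either array, with sums of 21357 and 24991 units that came mostly from Itgam. The differences of the 4 seen were 0.23 for Itgam (another probe -0.57), -0.14 for Csf1r (another probe 0.36), -0.83 for Lyz2 and -0.84 for Cd14. Of 4 endothelial markers Pecam1 and Kdr were seen, with a summed unscaled signal of 6567 and 7248 units that came mostly from Kdr. Pecam1 differed by -0.20 and Kdr by 0.09 (another probe -0.39). Endothelial Cdh5 and Tek were not above background on either array. Whether cell state or cell mixture bears on the members' values was not tested.

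**Figure D4:**
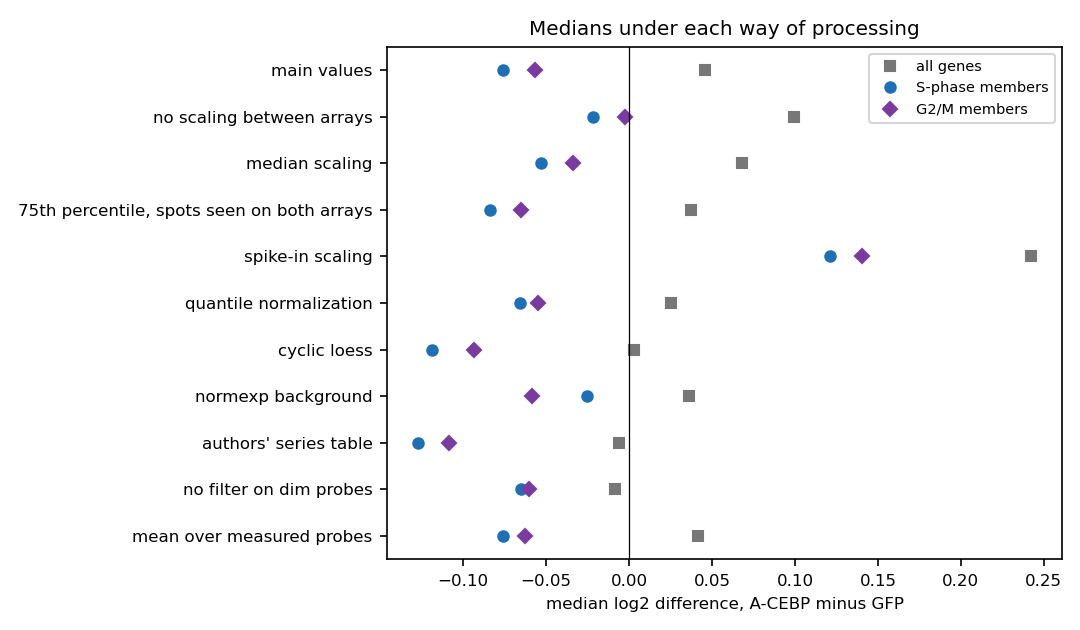
Median log2 difference (A-CEBP minus GFP) of all genes (grey squares), S-phase members (blue circles) and G2/M members (purple diamonds) in the main values and 10 alternatives. Both member medians lie above 0 only with spike-in scaling, at 0.12 and 0.14, and their distance to all genes is fixed by construction in the rows for no scaling, median, 75th percentile, spike-in and the authors' table.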

How the data were processed

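The files are scanner output of 1 GFP and 1 A-CEBP array. Per the file headers and the submitters' processing notes, Agilent Feature Extraction 10.10.1.1 made the deposited values, which are spot intensity on a linear scale, background-subtracted and detrended within each array. The authors' deposited series table holds intensity equal to that signal times 1.24 (GFP) or 1.15 (A-CEBP), uncentred, by a rule not given in the sources used here. From 0.1 µg of total RNA, Cy3 cRNA was made, per the labels.

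Control spots and 293 outlier spots (2 of members) were left out. Log2 of the processed signal was taken, the 75th percentile of each array subtracted and spots of a probe averaged. Probes passed as well above background when over 50% of their spots did. By transcript accession, 27229 (48.9%) of the 55671 probes found 1 gene in the RefSeq table (GRCm38.p6). A gene took its brightest probe seen on both arrays. A gene seen on 1 array got a lower bound, against the higher of the dim reading and the lowest probe seen there.

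There was 1 sample per group, so differences are given by size (2-fold, and 1.3-fold for description) with no test, and the number of arrays limits precision. All members were named. Of the related genes, those at least 2-fold apart, the largest in each direction per list (1 is not reported here) and all CDK inhibitors were named, and Ccnd3, Cdk4, Cdk6, the other E2F and pocket protein genes, Myc and Mybl2 were added after their values were seen, as were the 7 promoters. Members and lists were chosen with earlier results of these data known. The scanner files hold no mean spot signal, so the normexp alternative (offset 50) used the median signal. The procedure was tested on simulated data. R 4.3.3, limma 3.58.1 and Python 3.11.15 were used.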

Additional observations from a re-analysis of the deposited data

How the results depend on the processing

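Of 41 measured members, 0 changed sign with median scaling, without the filter on dim probes or with the mean over probes, between 2 and 6 did in the other alternatives except spike-in scaling, and 18 did with spike-in scaling, where 8 lay below 0. That scaling, on 280 spots of 8 control probes, gave medians of 0.12 (S-phase), 0.14 (G2/M), 0.14 (all members) and 0.16 (related genes), 0 S-phase members at least 1.3-fold lower, 1 G2/M member (Nusap1) at least 1.3-fold higher and 4 related genes (Ccnd1, Ccnd2, Cdkn1a and Cdkn1c) at least 2-fold higher. It moved the share of 2-fold calls that were higher from 42.4% to 64.2%, with 180 lower and 323 higher genes against 236 and 174. Those counts were 174 and 97 with the normexp background and 883 and 603 without the filter on dim probes, which tested 20657 genes. No G2/M member was at least 1.3-fold lower in the main values, and 1 (Birc5) was with quantile normalization, with cyclic loess and with the authors' series table. Without the filter on dim probes 2 G2/M members (Ttk and Aurkb) were, 1 member (Ttk) was at least 2-fold lower, and 2 related genes (E2f5, and Brca1, which passed background on neither array) were lower by that size, and 3 (Ccnd1, Ccnd2 and Esco2, which also passed on neither array) were higher by it. The cause of the other shifts was not tested. In the main values and the 5 alternatives that do more than shift all genes by 1 constant, 10 S-phase and 16 G2/M members lay below the median of all genes each time, 3 and 3 above it, and 4 and 5 on either side. No paired analysis was possible because each group had 1 sample. A value was held to have moved when it changed by more than the replicate-spot SD of 0.12. Dim members, among them Cdc6, Kif11, Pbk and Ttk, had the largest errors.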
